A study of Arabidopsis thaliana with 6 samples.

Results

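The peroxisome genes described here are 36 of the 27655 genes counted in a collection of Arabidopsis thaliana male meiocytes: 21 peroxins, which build the organelle, 12 genes of fatty acid beta-oxidation and 3 catalases. They were chosen by locus identifier and function, with earlier results of the same comparison of genotypes in view. For that reason the differences of these genes between the genotypes are given as a description, with no p-value, and a gene is said to be called when it passed an adjusted p of 0.05 in a fit over all genes. RNA was sequenced from the strain Ler (Landsberg erecta) and from knu-2, which carries a mutant allele of the zinc finger gene KNUCKLES (KNU), with 3 libraries of each. The cells were squeezed out of anthers at stages 4 to 7. The labels call the libraries biological replicates, name no sort of the cells and do not say in which strain knu-2 was made or whether separate plants were used for each library, so the tests measure the spread between these collections, which may be technical.

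Peroxisomes are organelles bounded by a single membrane that take up folded enzymes from the cytosol and break down fatty acids. Soluble enzymes carry a targeting signal that cytosolic receptors bring to the membrane, where the receptors are released, marked with ubiquitin and pulled back out. Membrane proteins are inserted by a separate set of peroxins, and PEX11 proteins elongate the organelle before it divides. Beta-oxidation shortens acyl-CoA chains, makes hydrogen peroxide at its first step, which catalase degrades, and in plants also completes the synthesis of jasmonate, a hormone that anthers need to mature and open.

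Library totals lay between 18070435 and 27995200 counts, and levels are given in CPM, counts relative to the library total after TMM scaling. KNU stood at 75.1, 68.1 and 87.2 CPM in Ler replicates 1 to 3 and at 13.8, 7.49 and 4.62 CPM in knu-2 replicates 1 to 3. All knu-2 libraries lay below all Ler libraries, by -3.16 on the log2 scale (SE 0.36, edgeR adjusted p = 0.000128). The 22 meiocyte markers summed to 6236 to 7532 CPM in Ler and to 1366 to 2456 CPM in knu-2, and 18 were called lower and 1 higher. The highest of them were DMC1, ASY1 and SDS, at log2 fold changes of -1.0, -2.37 and -3.45. SDS was at 93.6, 32.5 and 25.3 CPM in knu-2 replicates 1 to 3. Without knu-2 replicate 1, in which the marker sum was highest of the knu-2 libraries, SDS was at -4.27, and 21 of the markers were called lower and 0 higher. The peroxisome genes called without this library were 14 higher and 9 lower, against the 15 and 9 given below. The 16 tapetum markers, genes of the anther layer that nourishes the meiocytes, summed to 677 to 961 CPM in Ler and to 3010 to 3809 CPM in knu-2. Of the 13 tested, 11 were called higher and 1 lower. MEE48, AT5G07230 and TKPR1 were the highest, at log2 fold changes of 1.64, 2.42 and 2.1, and MS1, CYP703A2 and MS2 had no count in any library. The 12 photosynthesis genes, which stand for the green anther wall, summed to 1547 to 2159 CPM in Ler and to 1321, 3142 and 1613 CPM in knu-2 replicates 1 to 3. None of them was called by edgeR, DESeq2 or limma-voom, and 1 had an unadjusted p under 0.05 in edgeR. None of 5 tested pollen markers was called by these tools and 0 had an unadjusted p under 0.05, and the list summed to 7.85 to 52.4 CPM over all libraries. In bulk RNA, fewer cells of a type and less RNA per cell cannot be told apart, and the part of these shifts in the differences below was not tested.

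Across all genes, 48.1% of the 18422 tested were called (23.6% higher and 24.4% lower in knu-2), and the median log2 fold change was 0.10. Of the 35 peroxisome genes tested, 15 were called higher and 9 lower, 11 passed in neither direction, and the median log2 fold change was 0.11. For 15 of them the lowest knu-2 library exceeded the highest Ler library, for 12 the reverse held, and 8 overlapped, where 29.8% of all tested genes lay above, 29.3% below and 59.1% in either direction. The groups pointed in different directions. Of 20 peroxins tested, 13 were called higher and 2 lower (median 0.92), whereas of 12 beta-oxidation genes 1 was called higher and 7 lower (median -0.78). Since the genes were proposed from this comparison, nothing is read from these counts and medians or from the sums that follow. Summed over the 21 peroxins, the level was 652 to 689 CPM in Ler and 787 to 855 CPM in knu-2. The 12 beta-oxidation genes summed to 2233 CPM or more in each Ler library and to 1204 CPM or less in each knu-2 library, a ratio of means of 0.49. The ranges of the groups did not overlap for either sum.

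**Figure D1:**
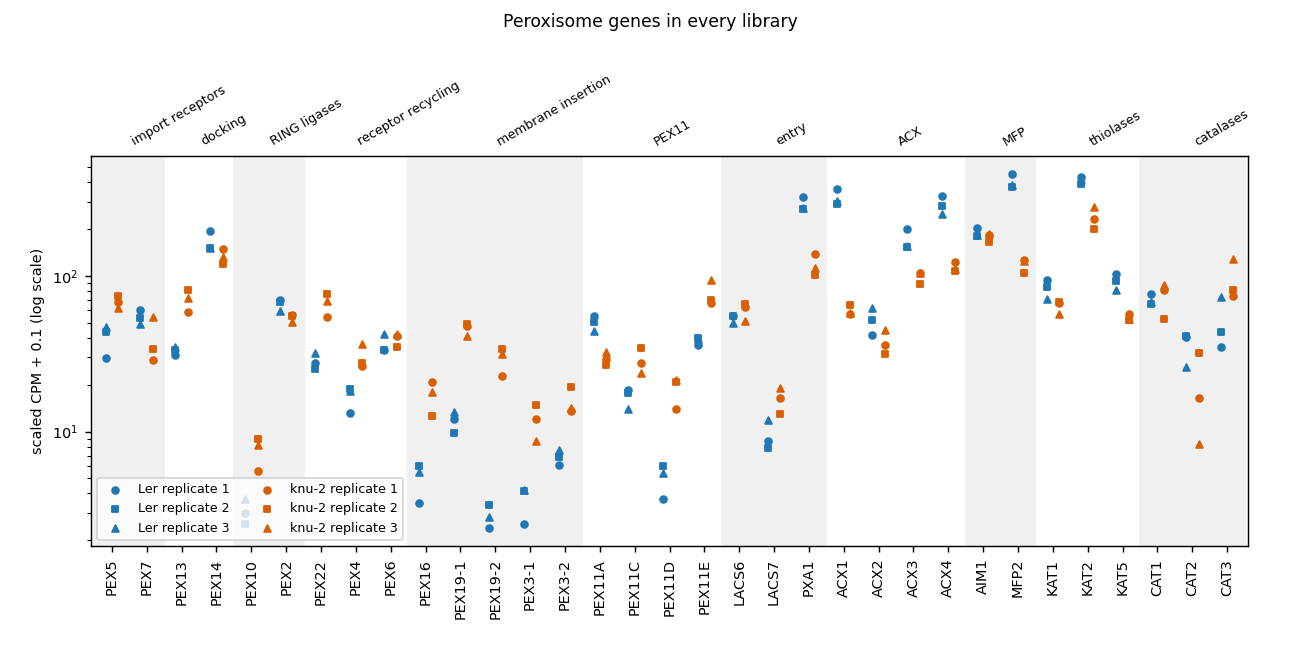
Scaled CPM (plus 0.1, log axis) of 33 of the genes in the 6 libraries, ordered by role; blue points are Ler, orange points knu-2, and the marker shape gives the replicate. The 5 genes of membrane insertion have every knu-2 point above every Ler point, while ACX1, ACX4, MFP2, PXA1 and KAT2 have every knu-2 point below.

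In Ler, several beta-oxidation genes stood among the highly expressed genes and several peroxins among the low ones, but the groups overlapped. Compared per length, in mean CPM per kilobase of gene model, the thiolase gene KAT2 was highest at 192, followed by MFP2 at 149, ACX4 at 148 and ACX1 at 123. KAT2 lay at percentile 96.3 of the tested genes on this scale, MFP2 and ACX4 at 94.8 and ACX1 at 93.5. ACX2, LACS6 and LACS7 lay lower, at percentiles 65.7, 68 and 31.1. PEX14 was the highest peroxin, at 86.5 CPM per kilobase (percentile 90.4), and PEX11A and PEX2 lay at percentiles 83.4 and 81. The lowest tested members were PEX10 at 1.25, PEX3-1 at 2.03, PEX19-2 at 2.07 and PEX16 at 3.13 CPM per kilobase, at percentiles 13.8 to 27.4.

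Upstream sequences are shown for 4 genes: ACX1, the member with the largest fall, PEX11D, a PEX11 gene that was called higher, and MFP2 and AIM1, which encode the same enzyme activities and of which MFP2 alone was called. Each is the stretch just before the annotated start of the gene in TAIR10.1 (RefSeq annotation), 250 bases or, for PEX11D, the 161 bases that lie outside the neighbouring gene, 5′ to 3′ on the strand of the gene. Capitals mark matches, on either strand, to CACGTG (the G-box) and to TTGACC and TTGACT (the W-box).
ACX1, chr4:9428896-9429145, minus strand: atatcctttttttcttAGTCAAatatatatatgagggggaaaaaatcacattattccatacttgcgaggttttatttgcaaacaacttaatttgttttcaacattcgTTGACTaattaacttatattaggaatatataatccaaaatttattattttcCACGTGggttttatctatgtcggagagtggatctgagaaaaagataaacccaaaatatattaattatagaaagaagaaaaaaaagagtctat
PEX11D, chr2:18839274-18839434, plus strand: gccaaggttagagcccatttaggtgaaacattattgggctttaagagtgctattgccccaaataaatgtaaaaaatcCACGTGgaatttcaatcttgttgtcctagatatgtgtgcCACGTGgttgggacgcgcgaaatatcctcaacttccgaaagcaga
MFP2, chr3:2161485-2161734, plus strand: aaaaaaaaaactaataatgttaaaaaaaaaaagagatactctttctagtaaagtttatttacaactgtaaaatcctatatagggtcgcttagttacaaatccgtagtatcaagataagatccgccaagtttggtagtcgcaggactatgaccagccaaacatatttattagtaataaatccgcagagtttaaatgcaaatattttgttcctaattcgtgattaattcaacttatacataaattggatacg
AIM1, chr4:14302288-14302537, minus strand: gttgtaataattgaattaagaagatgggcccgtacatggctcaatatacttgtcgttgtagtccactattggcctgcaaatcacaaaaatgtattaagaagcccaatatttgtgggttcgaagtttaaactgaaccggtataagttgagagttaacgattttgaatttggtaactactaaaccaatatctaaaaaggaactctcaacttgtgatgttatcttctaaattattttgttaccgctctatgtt
CACGTG was found in the ACX1 and PEX11D windows, 1 and 2 times, and in no other window of the 36 members, while 6.49% of the 27443 windows of all genes hold it. ACX1 was called lower and PEX11D higher. TTGACC was in 4 member windows (PEX3-1, PEX11A, ACX2 and ACX3) against 12.2% of all windows, and TTGACT in 6 (PEX3-2, PEX10, PEX11C, ACX1, LACS7 and CAT1) against 19.1%. In the printed windows no match overlaps another, and MFP2 and AIM1 hold none of the 3 hexamers. A match is a description of the letters and not of a bound site.

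The 5 genes for the insertion of membrane proteins were all called higher in knu-2, as were 23.6% of all tested genes. The members were proposed from this comparison, so nothing is read from this count. PEX19 is the cytosolic receptor and chaperone for these proteins, PEX3 its anchor in the membrane, and PEX16 acts with them. PEX19-2 (AT5G17550) stood at 2.29, 3.28 and 2.71 CPM in Ler replicates 1 to 3 and at 22.6, 33.9 and 31.2 CPM in knu-2 replicates 1 to 3. The lowest knu-2 library was thus far above the highest Ler library, with a fold of 10.6 (log2 3.40, SE 0.28), the largest difference of any member. Its paralog PEX19-1 (AT3G03490) went from 12, 9.64 and 13.3 CPM to 47.4, 48.8 and 40.9 CPM, again without overlap, at a log2 fold change of 1.98 (SE 0.20). Per length, PEX19-2 supplied 17.5 ± 4.76% of the PEX19 transcripts of Ler and 35.9 ± 5.59% of those of knu-2 (SD, n = 3), so PEX19-1 remained the larger source in every library. The summed PEX19 level was 12 ± 1.33 CPM per kilobase in Ler and 60.9 ± 5.33 in knu-2.

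PEX3-1 (AT3G18160) was measured at 2.46, 4.03 and 4.09 CPM in Ler and at 12, 14.7 and 8.64 CPM in knu-2, a log2 fold change of 1.74 (SE 0.36). PEX3-2 (AT1G48635) was at 6.02, 6.80 and 7.51 CPM and at 13.4, 19.3 and 14 CPM, a log2 fold change of 1.20 (SE 0.28). Both PEX3 genes were without overlap between genotypes, and knu-2 replicate 2 was the highest library for each. PEX16 (AT2G45690) rose from 3.39, 5.89 and 5.41 CPM to 20.7, 12.4 and 17.8 CPM (log2 1.79, SE 0.33), and here knu-2 replicate 2 was the lowest of its group. Summed over these 5 genes, Ler libraries held 26.1 to 33.0 CPM and knu-2 libraries 112 to 129 CPM, a ratio of means of 4.03. The sum of the tapetum markers changed by a ratio of 3.96 in the same libraries, and its part in the result was not tested. The calls of all 5 genes held under every alternative run, with log2 fold changes of 3.27 to 3.73 for PEX19-2 and 1.85 to 2.30 for PEX19-1.

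The PEX11 genes, which elongate peroxisomes before division, differed among themselves. PEX11A (AT1G47750) went down, from 55, 50.6 and 43.9 CPM in Ler to 29.3, 26.7 and 32.5 CPM in knu-2 (log2 -0.76, SE 0.18). PEX11D (AT2G45740) went up, from 3.61, 5.93 and 5.30 CPM to 13.8, 20.8 and 21.4 CPM (log2 1.91, SE 0.31). The 2 genotypes did not overlap for either gene. PEX11E (AT3G61070) was at 36.1, 39.8 and 39.1 CPM in Ler and at 66.5, 70.1 and 93.5 CPM in knu-2 (log2 1.00, SE 0.18), and PEX11C at 18.3, 17.6 and 13.8 CPM and at 27.6, 34.1 and 23.7 CPM (log2 0.78, SE 0.22). Both were called higher, PEX11C not without Ler replicate 3 (log2 0.64). Per length, PEX11A supplied 57.0 ± 2.78% of all PEX11 transcripts of Ler and 27.7 ± 2.75% of those of knu-2, and PEX11E 24.0 ± 2.60% and 38.8 ± 4.26% (SD, n = 3). The leading PEX11 gene was PEX11A in each Ler library and PEX11E in each knu-2 library. The summed PEX11 level moved less, from 87.9 ± 6.53 to 108 ± 10.1 CPM per kilobase. Exons of PEX11E overlap those of AT3G61060 on the opposite strand over 489 bases, 26.7% of its length, and the sources used here do not state a strand setting for the counting. AT3G61060 itself had a mean of 9.98 CPM (Ler) and 8.86 CPM (knu-2).

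**Figure D2:**
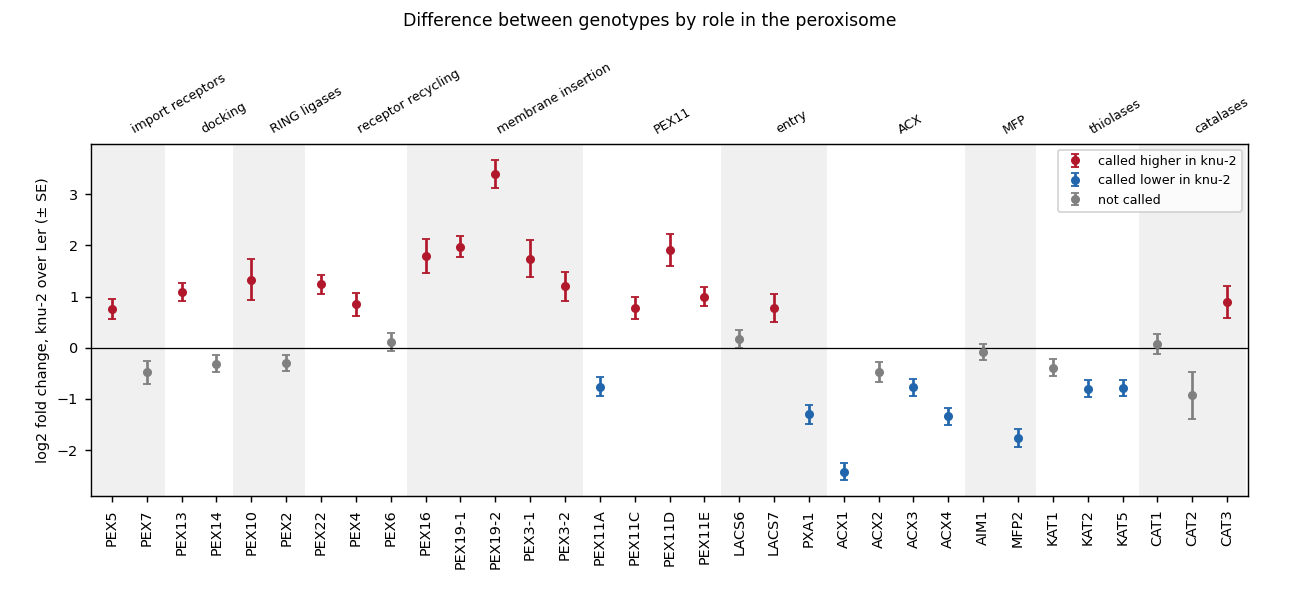
Log2 fold change of knu-2 over Ler with its standard error for 33 tested genes, ordered by role; red points were called higher, blue points lower and grey points not called. The 5 genes of membrane insertion lie between 1.20 and 3.40, whereas the 4 acyl-CoA oxidase genes lie between -2.42 and -0.47.

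In the import machinery for soluble enzymes, most roles held both genes that were called and genes that were not. PEX5 (AT5G56290), the receptor for the C-terminal signal that most matrix enzymes carry, was called higher, from 40.1 ± 9.35 to 68.1 ± 5.92 CPM. PEX7, the receptor for the N-terminal signal found on thiolases, was at 54.4 ± 5.58 and 39.1 ± 13.7 CPM and was not called (log2 -0.48, SE 0.23). Without knu-2 replicate 3, which held 54.5 CPM against 28.8 and 33.9 CPM in knu-2 replicates 1 and 2, PEX7 was called lower (-0.80). The docking proteins of the membrane split in the same way. PEX13 (AT3G07560) stood at 31.1, 33.4 and 34.7 CPM in Ler and at 58.2, 81.0 and 72.3 CPM in knu-2, with no overlap (log2 1.09, SE 0.18). PEX14 was at 166 ± 25.5 and 134 ± 15.3 CPM, with every knu-2 library below every Ler library, and was not called (log2 -0.31, SE 0.17). Its difference was 0.00 with no scaling beyond library totals, a setting that moved all genes by a median of 0.32.

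Of the RING-finger ubiquitin ligases, PEX10 (AT2G26350) was at 2.90, 2.45 and 3.59 CPM in Ler and at 5.51, 8.86 and 8.15 CPM in knu-2 (log2 1.33, SE 0.40). Every knu-2 library was above every Ler library, although the gene lost its call without Ler replicate 1 (1.31) or Ler replicate 2 (1.20). PEX2 was at 66.0 ± 5.80 and 53.8 ± 3.02 CPM, with every knu-2 library below every Ler library, and was not called (log2 -0.30). Its difference turned to 0.03 with library totals only. PEX2 shares 227 bases of exon with AT1G79820 on the opposite strand, which had a mean of 216 CPM (Ler) and 78.9 CPM (knu-2). Among the genes of receptor recycling, the ATPase gene PEX6 was at 36.4 ± 5.32 and 39.4 ± 3.87 CPM and not called (log2 0.11, SE 0.18). PEX22 (AT3G21865), which anchors PEX4 to the membrane, was at 27.5, 25.2 and 31.7 CPM in Ler and at 54.4, 76 and 68.7 CPM in knu-2 (log2 1.24, SE 0.19). PEX4, the ubiquitin-conjugating enzyme, was called higher with it, from 16.6 ± 3.10 to 29.9 ± 5.48 CPM (log2 0.85, SE 0.23). Exons of PEX4 overlap AT5G25770 on the opposite strand over 15.5% of its length, and AT5G25770 had a mean of 6.13 CPM (Ler) and 14.1 CPM (knu-2).

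Beta-oxidation starts with entry into the organelle and activation of the fatty acid. PXA1 (AT4G39850), the ABC transporter that admits the substrates, was at 322, 269 and 273 CPM in Ler and at 139, 101 and 112 CPM in knu-2, without overlap (log2 -1.30, SE 0.18). The acyl-CoA synthetase genes that act inside the peroxisome did not follow it. LACS6 was at 53.3 ± 3.25 and 60.0 ± 8.01 CPM and not called (log2 0.17, SE 0.17), though it was called higher with no scaling beyond library totals (0.50). LACS7 was called higher, from 9.33 ± 2.11 to 16.1 ± 3.07 CPM (log2 0.78, SE 0.28). It lost this call with DESeq2 size factors (0.72), with DESeq2 (0.72) and without Ler replicate 1 (0.72), Ler replicate 2 (0.66), knu-2 replicate 1 (0.76) or knu-2 replicate 3 (0.64).

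Acyl-CoA oxidases catalyse the first step and differ in the chain length they prefer. ACX1 (AT4G16760) was at 362, 291 and 305 CPM in Ler and at 56.9, 64.9 and 57.6 CPM in knu-2, a 5.34-fold fall (log2 -2.42, SE 0.17). ACX4 (AT3G51840) was at 327, 282 and 251 CPM in Ler and at 122, 107 and 111 CPM in knu-2 (log2 -1.34, SE 0.16). For both, the lowest Ler library was over the highest knu-2 library by more than the spread within either group. ACX3 (AT1G06290) was at 200, 154 and 156 CPM in Ler and at 105, 88.5 and 105 CPM in knu-2 and was called lower (log2 -0.77, SE 0.17). ACX2 was at 41.8, 51.7 and 62.0 CPM and at 35.7, 31.3 and 44.8 CPM, with overlap, and was not called (log2 -0.47, SE 0.20). It was called lower with the replicate block (-0.47), with DESeq2 size factors and with DESeq2 (both -0.53), without Ler replicate 1 (-0.62) and without knu-2 replicate 3 (-0.63). Per length, ACX1 made up 34.4 ± 1.13% of the transcripts of these 4 genes in Ler and 17.1 ± 2.20% in knu-2, while ACX3 made up 18.8 ± 0.796% and 29.2 ± 1.4% (SD, n = 3). ACX4 was the largest source in all 6 libraries, with 41.3 ± 2.07% and 43.3 ± 1.80%. Of the 100-base stretches of ACX3, 4.05% also occur in AT3G06690, so a small share of its reads could belong to either gene.

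The multifunctional proteins MFP2 and AIM1 hydrate and then dehydrogenate the enoyl-CoA that the oxidases make, and only MFP2 was called. MFP2 (AT3G06860) was at 454, 375 and 383 CPM in Ler and at 127, 105 and 125 CPM in knu-2, without overlap (log2 -1.76, SE 0.17). AIM1 (AT4G29010) was at 202, 180 and 183 CPM in Ler and at 184, 165 and 186 CPM in knu-2. Its groups overlapped, the log2 fold change was -0.08 (SE 0.15), and the sign turned with library totals only (0.24) and with the filter at 5 CPM (0.01). Per length, MFP2 made up 69.1%, 67.5% and 67.6% of the pair in the Ler libraries and 40.7%, 38.9% and 40.2% in the knu-2 libraries. MFP2 was thus the larger source in every Ler library and AIM1 in every knu-2 library, and within each genotype the share varied by an SD of under 1 percentage point (0.919 and 0.921).

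Thiolases release acetyl-CoA at the last step. KAT2 (AT2G33150) was called lower, from 411 ± 20.8 to 236 ± 37.5 CPM (log2 -0.80, SE 0.17), as was KAT5, from 92.2 ± 10.9 to 53.7 ± 2.51 CPM (log2 -0.78, SE 0.16). KAT5 shares exon sequence over 6.43% of its length with AT5G48870 on the opposite strand, whose log2 fold change was -1.10. KAT1 was at 83.5 ± 11.2 and 63.8 ± 5.73 CPM (log2 -0.39, SE 0.17), did not overlap between the genotypes and was called by DESeq2 alone (-0.46). KAT2 supplied 68.8 ± 2.61% of the thiolase transcripts per length in Ler and 64.6 ± 4.85% in knu-2, and KAT5 13.3 ± 0.964% and 12.8 ± 1.11%. Over the 12 beta-oxidation genes, the level moved the same way as the sum of the meiocyte markers, which had a ratio of means of 0.267 against 0.49, and its part in the result was not tested. In knu-2 replicates 1 to 3 the marker sum was 2456, 1366 and 1579 CPM while the beta-oxidation sum was 1204, 1062 and 1196 CPM.

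**Figure D3:**
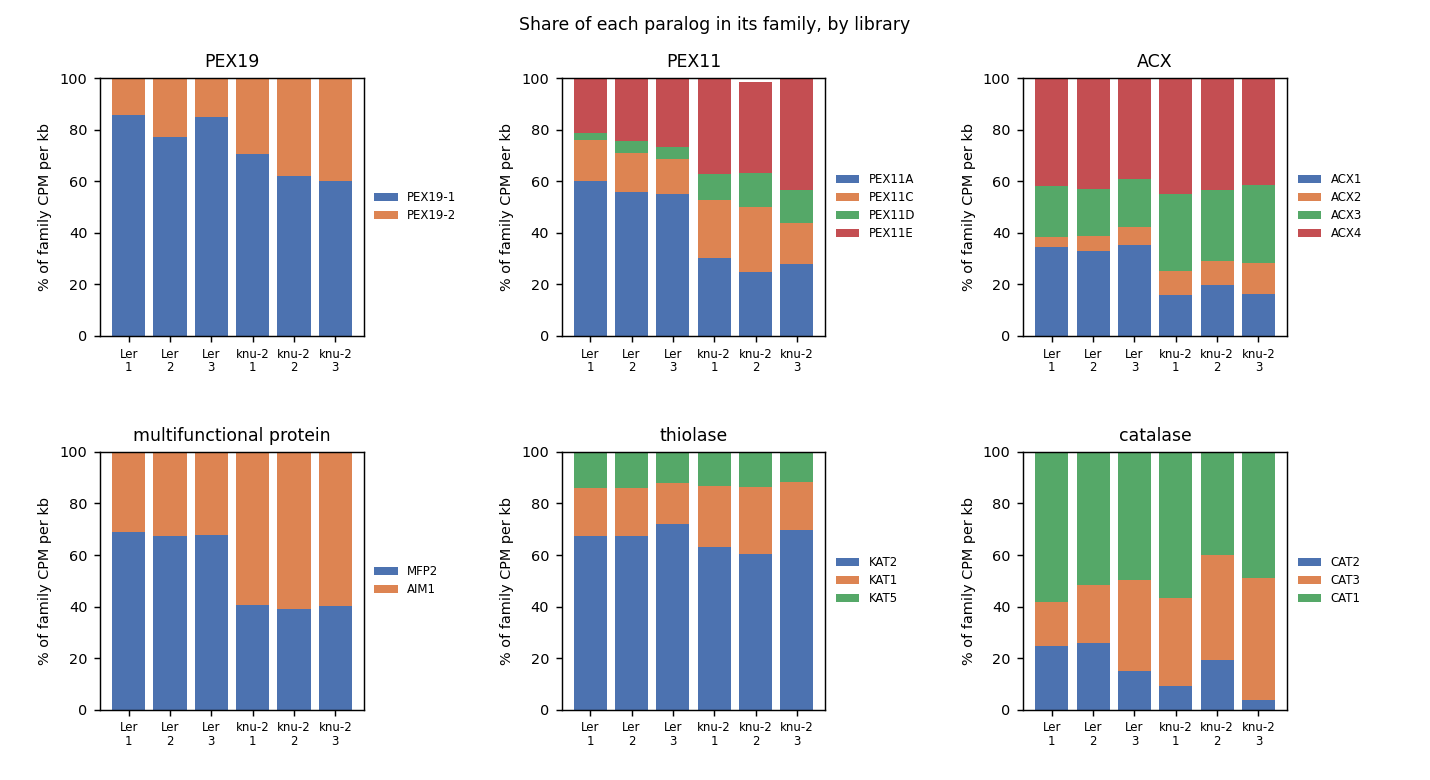
Share of each paralog in the summed CPM per kilobase of its family, in percent, for the 6 libraries (replicate number under the genotype); PEX11 bars that end below 100% leave out a share that is not plotted. MFP2 falls from 67.5% or more in Ler to 40.7% or less in knu-2 and PEX11A from 54.9% or more to 30.3% or less, while KAT2 stays between 60.5% and 71.9%.

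The 3 catalases, which break down hydrogen peroxide, did not move together. CAT1 (AT1G20630) was at 76.8, 65.6 and 68.0 CPM in Ler and at 81.0, 52.8 and 86.9 CPM in knu-2. Its groups overlapped and the log2 fold change was 0.07 (SE 0.20), which turned to -0.02 without knu-2 replicate 1 and to -0.07 without knu-2 replicate 3. CAT3 (AT1G20620) was at 34.8, 43.7 and 73.4 CPM in Ler and at 74.1, 81.1 and 128 CPM in knu-2, with the highest Ler library just under the lowest knu-2 library. It was called higher (log2 0.90, SE 0.31) but lost the call with no low-count filter (0.88) and without Ler replicate 1 (0.68), Ler replicate 2 (0.80), knu-2 replicate 2 (1.01) or knu-2 replicate 3 (0.61).

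CAT2 (AT4G35090), the catalase known for its role beside photorespiration in leaves, was at 40.3, 40.8 and 25.8 CPM in Ler and at 16.3, 31.7 and 8.23 CPM in knu-2. The groups overlapped through knu-2 replicate 2, and the gene was not called (log2 -0.93, SE 0.46). Without knu-2 replicate 2 it was called lower at -1.54, as it was with the replicate block (-1.10), DESeq2 (-1.0) and limma-voom (-1.15). The photosynthesis genes summed to 3142 CPM in knu-2 replicate 2 against 1321 and 1613 CPM in replicates 1 and 3, and their part in the level of CAT2 was not tested. Per length, 21.8 ± 5.83% of the catalase transcripts of Ler and 10.8 ± 7.95% of those of knu-2 came from CAT2 (SD, n = 3). On this scale CAT1 made up the largest share in each library except knu-2 replicate 2, where CAT3 (40.5%) and CAT1 (40.1%) were nearly equal. The order depends on the deposited lengths, 3385 bases in 3 merged exons for CAT3 and 2226 bases in 7 for CAT1. In CPM not divided by length, CAT3 lay above CAT1 in Ler replicate 3 and in knu-2 replicates 2 and 3, and below it in the other libraries. CAT3 and CAT1 lie next to each other on chromosome 1 of TAIR10.1 on the same strand, CAT3 from 7142972 to 7146540 and CAT1 from 7146636 to 7150180, with 95 bases between them. The neighbours thus had log2 fold changes of 0.90 and 0.07.

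**Figure D4:**
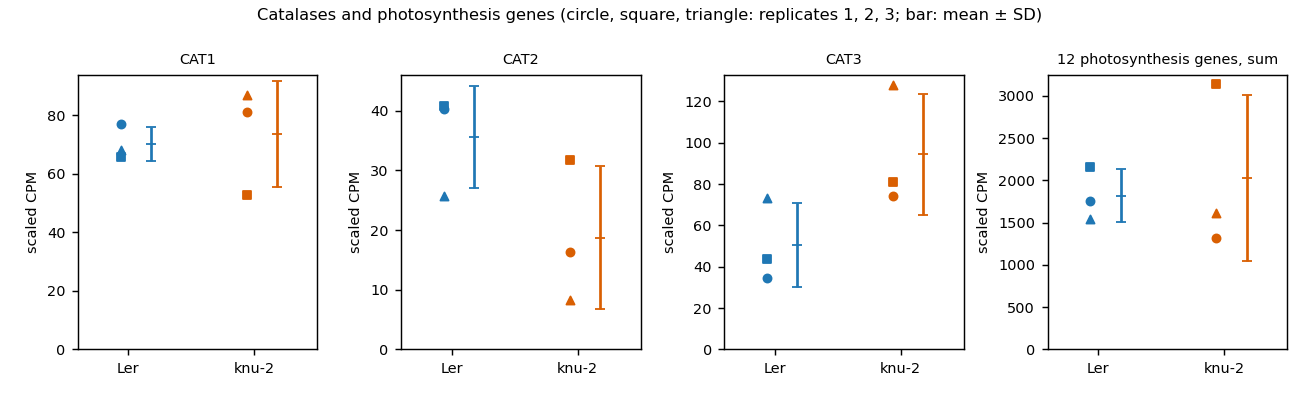
Scaled CPM of CAT1, CAT2, CAT3 and of 12 photosynthesis genes summed, by library, with the mean and SD of each genotype (n = 3); circles, squares and triangles are replicates 1, 2 and 3. In knu-2, replicate 2 (squares) is the highest library for CAT2 (31.7 CPM) and for the photosynthesis sum (3142 CPM) and the lowest for CAT1 (52.8 CPM).

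Other genes of the peroxisome and of linked pathways, taken from lists made by function, were tested in the same fit. Their adjusted p-values are those of edgeR over all genes. The lists, like the members, were made with earlier results of this comparison known, so these p-values are no independent support for a direction. Of 11 further genes of biogenesis, division and quality control, 1 rose, 4 fell and 6 were not called, so that 45.5% were called against 48.1% of all tested genes. The median log2 fold change was -0.09, which turned to 0.22 with library totals only and to 0.01 without knu-2 replicate 2. DRP5B, a dynamin-related protein that divides chloroplasts and peroxisomes, fell from 133 ± 14.6 to 21.1 ± 6.72 CPM (log2 -2.66, SE 0.23, adjusted p = 1.22e-05). DRP3B, another dynamin-related protein of organelle division, fell from 501 ± 34.4 to 169 ± 42.9 CPM (adjusted p = 9.64e-05), and the protease gene LON2 from 83.8 ± 7.92 to 21.9 ± 5.32 CPM (adjusted p = 3.28e-05). DEG15, the protease that removes the N-terminal targeting signal, was the gene that rose, from 9.47 ± 2.11 to 39.1 ± 2.99 CPM (log2 2.04, SE 0.23, adjusted p = 4.27e-05). The count of genes that rose was 2 without knu-2 replicate 2 or knu-2 replicate 3 and 4 with library totals only.

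Of 22 other genes of beta-oxidation and acyl-CoA handling, 9 fell, 3 rose and 10 were not called, so that 54.5% were called against 48.1% of all tested genes. The median log2 fold change was -0.26, which turned to 0.06 with library totals only. The enoyl-CoA isomerase gene ECI1 fell from 37.3 ± 10.2 to 6.61 ± 2.36 CPM (log2 -2.50, SE 0.31, adjusted p = 7.47e-05), and the hydratase gene ECH2 fell from 241 ± 3.40 to 90.2 ± 13.7 CPM (adjusted p = 5.35e-05). PNC2, which encodes a carrier that brings ATP into the peroxisome, fell from 148 ± 24.7 to 58.2 ± 7.14 CPM (adjusted p = 0.000122). Against these, PXN, the NAD carrier of the peroxisomal membrane, rose from 18.6 ± 0.543 to 82.2 ± 7.41 CPM (log2 2.15, SE 0.17, adjusted p = 9.69e-06). PNC1, the other PNC gene of the list, went against PNC2 and rose from 17.1 ± 1.06 to 31.3 ± 4.78 CPM (log2 0.87, SE 0.20, adjusted p = 0.0041). With library totals only, 5 in place of 3 were called higher. In the same libraries the meiocyte markers were lower and the tapetum markers higher, as given above, and their part in these results was not tested.

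Of 14 redox genes other than catalases, 6 fell, 3 rose and 5 were not called. Thus 64.3% were called against 48.1% of all tested genes, and the median log2 fold change was -0.60. The monodehydroascorbate reductase genes, which regenerate ascorbate, fell: MDAR4 from 167 ± 1.79 to 55.5 ± 9.44 CPM (adjusted p = 3.38e-05), and MDAR1 from 897 ± 99.4 to 402 ± 68.3 CPM (adjusted p = 0.000326). The glutathione reductase gene GR1 fell from 375 ± 27.2 to 177 ± 42.2 CPM (adjusted p = 0.000751). PAO4, a polyamine oxidase gene, fell from 386 ± 15.7 to 145 ± 24.5 CPM (log2 -1.41, SE 0.17, adjusted p = 7.01e-05). The dehydroascorbate reductase gene DHAR1, which also regenerates ascorbate, rose from 127 ± 30 to 219 ± 16.7 CPM (log2 0.79, SE 0.19, adjusted p = 0.0049). The number that rose was 1 without Ler replicate 3, 6 with library totals only and 5 with the filter at 5 CPM.

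The glyoxylate cycle turns acetyl-CoA from beta-oxidation into sugar precursors in seedlings, and the transcripts of its 2 defining enzymes, malate synthase (MLS) and isocitrate lyase (ICL), were at or near 0. MLS had no count in any library, CSY1 was too low to test, and ICL had 0.648 ± 0.31 CPM (Ler) and 2.93 ± 0.786 CPM (knu-2; log2 2.18, SE 0.75, adjusted p = 0.032). Of the 6 genes tested in this list of the cycle and linked steps, ICL and PCK1 (51.4 ± 8.48 to 72.2 ± 10.4 CPM, adjusted p = 0.047) were called higher and 4 were not called. Thus 33.3% were called against 48.1% of all tested genes. Both calls were lost in several alternative runs, 5 of 12 for ICL and 8 of 13 for PCK1. ICL lost its call without Ler replicate 1 (adjusted p = 0.108), Ler replicate 2 (0.103), knu-2 replicate 2 (0.0652) or knu-2 replicate 3 (0.0753) and with the replicate block (0.0552). Over all alternative runs in which ICL was tested, by edgeR, DESeq2 or limma-voom, its adjusted p lay between 0.0121 and 0.108. PCK1 lost it when any Ler library was left out (adjusted p = 0.202, 0.109 and 0.0587 for replicates 1 to 3) and without knu-2 replicate 2 (0.0524) or knu-2 replicate 3 (0.157). It also lost it with DESeq2 size factors (0.0729), DESeq2 (0.0814) and no low-count filter (0.0568). Over all alternative runs, by edgeR, DESeq2 or limma-voom, the adjusted p of PCK1 lay between 0.00428 and 0.202.

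Of 9 photorespiration genes, 2 rose and 7 were not called (22.2% called against 48.1% of all tested genes). The median log2 fold change was 0.71, but -0.31 without knu-2 replicate 2, in which the list summed to 284 CPM against 162 and 176 CPM in knu-2 replicates 1 and 3. These 2 were the glutamate-glyoxylate aminotransferase genes GGT2, from 10.7 ± 1.21 to 20 ± 2.03 CPM (adjusted p = 0.00702), and GGT1, from 57.0 ± 12.4 to 95.5 ± 18.3 CPM (adjusted p = 0.0116). GGT1 lost its call when Ler replicate 3 was left out (edgeR adjusted p = 0.0633). This was the highest of its values over all alternative runs, by edgeR, DESeq2 or limma-voom, of which 0.00208 was the lowest.

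**Figure D5:**
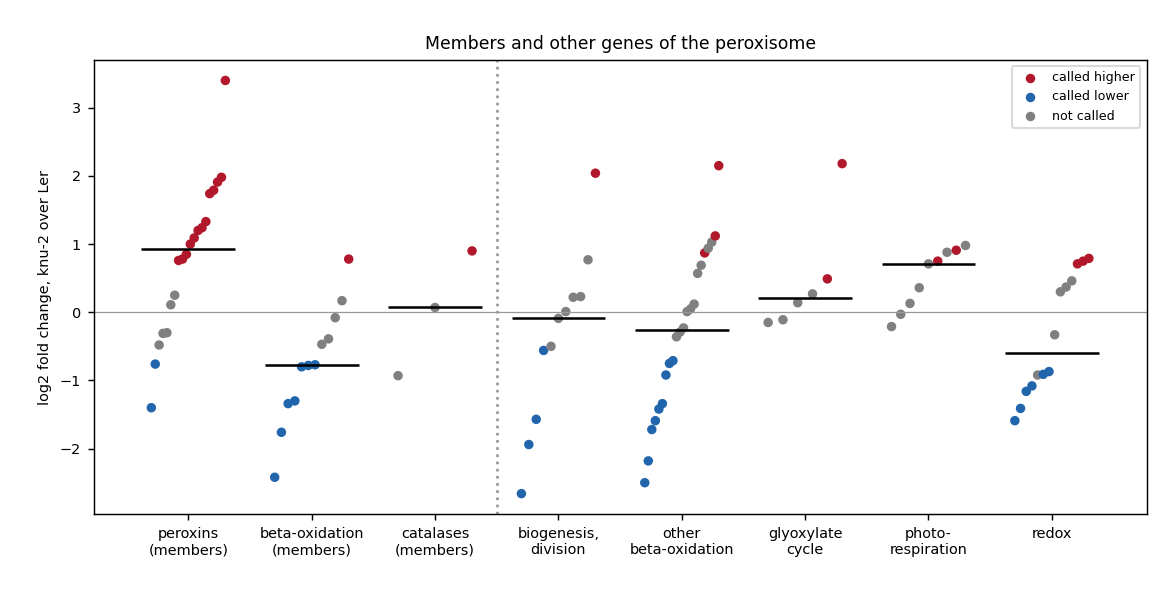
Log2 fold changes of knu-2 over Ler for the members (left of the dotted line) and 5 lists of peroxisome and linked genes. Each point is a tested gene (red called higher, blue lower, grey not called), and the line is the median. The medians are 0.92 for peroxins, -0.78 for beta-oxidation members and -0.60 for redox genes.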

How the data were processed

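RNA was sequenced from cells collected as meiocytes of Ler and knu-2, 3 libraries each. Libraries were made from poly-A RNA with random hexamer priming, per the labels' protocols. The sources used here do not name the aligner, counting tool, build or strand setting. The authors deposited 1 whole-number count per gene and library, not normalized as judged from the values, and the gene length as another value. Of 27655 genes, 27445 were found in TAIR10.1 by identifier, and 99.4% of these had exactly its merged exon length.

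Genes were kept with edgeR's filterByExpr (18422; the others held 0.0572% to 0.113% of each library). Libraries were scaled by TMM (factors 0.870 to 0.914 in Ler and 1.06 to 1.21 in knu-2). edgeR's quasi-likelihood test (robust) compared the genotypes over all 6 libraries with no covariate, with Benjamini-Hochberg adjustment over all genes (R 4.3.3, edgeR 4.0.16). Standard errors (SE) were derived from the log2 fold change and its F statistic. A count of 0 allows up to 3 counts, here 0.119 to 0.166 CPM, for counting error only. No replicate was a copy of another (chi-square per degree of freedom 20.3 or higher). Per-length levels divide CPM by the deposited length. The scripts were tested on simulated data with 100 genes set to differ 2-fold and 100 set to differ 4-fold. There edgeR called 6% of the 2-fold and 89% of the 4-fold genes, with 5 false calls. The simulation gave all genes the same spread between libraries, so these shares are not those of the real genes.

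Other settings tried were library totals only, DESeq2 size factors, a replicate block, DESeq2 1.42.0, limma-voom 3.58.1, no low-count filter, an average of 5 CPM, and leaving out each library. The members and lists were chosen with earlier results of these data known. Per-library values are given for called members with a log2 fold change of 1 or more in size, their paralogs and the catalases. In each list, up to 4 called genes with the smallest p are named, and up to 3 markers with the highest level. CSY1, DHAR1, PNC1 and genes at 0 were named after their values were seen. The values of 3 members are not reported here. Where the reference has another symbol for a listed locus, that symbol is used.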

Additional observations from a re-analysis of the deposited data

How the results depend on the processing

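Peroxisome genes called higher numbered 15 with all libraries, 14 to 16 under the alternatives that keep them and 12 to 14 without 1 library, and those called lower 9, 9 to 12 and 9 to 11. No called member changed sign. Over all genes, 3346 to 6149 were called higher and 3499 to 4907 lower, and library totals only gave 63.7% of calls as higher against 49.2%.

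Counts that moved by over 1.5 times were few and small. With library totals only, genes called higher were 4 in biogenesis and division, 5 in other beta-oxidation, 6 in redox, 1 in photosynthesis and 1 in pollen, and tapetum genes called lower were 0. With the filter at 5 CPM they were 2 in biogenesis and division, 5 in redox and 1 in photosynthesis, 1 in the glyoxylate cycle, and 0 tapetum genes were lower. The glyoxylate cycle had 1 gene higher with the replicate block, DESeq2 size factors, DESeq2 and no low-count filter. The meiocyte list had 0 genes higher with DESeq2 size factors and DESeq2, and the tapetum list 0 lower with the replicate block. Leaving out 1 library gave 1 to 2 genes higher in biogenesis and division, 0 to 2 in the glyoxylate cycle, 1 to 3 in photorespiration, 1 to 3 in redox, 0 to 1 among meiocyte markers and 0 to 1 among photosynthesis genes, and 0 to 1 lower in the tapetum list, 0 to 2 among photosynthesis genes and 0 to 1 in pollen. RBCS1A (0.28) lay between -0.20 and 0.52 and LHCA1 (0.38) between -0.03 and 0.60 when 1 library was left out, and both were below 0 without knu-2 replicate 2. CAB1 (-0.04) turned to 0.30 with library totals only and 0.07 with the filter at 5 CPM, and lay between -0.30 and 0.08 when 1 library was left out, above 0 without Ler replicate 2 (0.06), knu-2 replicate 1 (0.08) or knu-2 replicate 3 (0.04). The cause was not tested.

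Same-numbered libraries of the genotypes had deviations that correlated at -0.12, 0.10 and 0.052, so the numbers were not taken to pair the samples. The replicate block gave 4284 genes higher and 4562 lower, and 15 members higher and 11 lower. Counting error bears on genes as low as ICL, at fewer than 4 CPM in every library.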
